A study of Mus musculus with 12 samples.

Results

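The genes described here are 10 direct targets of the transcription factor p53: Cdkn1a, Mdm2, Ccng1, Trp53inp1, Bbc3, Bax, Phlda3, Aen, Sesn2 and Zmat3. They were chosen by name, as well-known p53 targets, out of 55401 genes counted in each RNA-seq library of mouse 8-cell embryos, and all 10 were found in the gene table. p53 is a sequence-specific activator that is kept scarce by the ubiquitin ligase MDM2 and becomes stable when DNA is damaged or a cell is under stress. Its targets halt the cell cycle, drive apoptosis, support DNA repair and limit p53 itself, so that the same pathway can pause a cell or remove it. Most of these genes also have p53-independent inputs, and a transcript level is not a measure of p53 activity.

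The embryos came from B6129F1 females, 3-5 weeks old, mated with B6CBAF1 males, and carried no engineered allele. Zygotes received siRNA by microinjection together with H2B-EGFP, a fluorescent histone that marks injected embryos (150 ng/µl). The 4 groups were a non-targeting control siRNA (15 µM, n = 2), an siRNA against Nr5a2 (5 µM, n = 3; Nr5a2 KD), an siRNA against Klf5 (10 µM, n = 3; Klf5 KD) and both siRNAs together (n = 4; dKD, whose concentrations the sources used here do not give). NR5A2 is an orphan nuclear receptor and KLF5 a Krüppel-like factor, and both act in the early embryo. Each library pooled 10 embryos, and nothing states that libraries came from separate collections, so p-values measure only the spread between these libraries. Library numbers in the file headers place the control libraries side by side and apart from the first and second replicates of the knockdowns; whether the numbers mark batches is not given, and the effect of such a batch and the difference from control cannot be told apart. A knockdown lowers a transcript without removing it, and the pools were not sorted by developmental outcome.

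The libraries held 6676683 to 12560926 counts on genes. Nr5a2 stood at 210 and 225 CPM (counts scaled to a common library size, here by TMM) in control and at 24.1 to 38.8 CPM in the 7 libraries given Nr5a2 siRNA. Klf5 stood at 444 and 466 CPM in control and at 39.9 to 144 CPM in the 7 libraries given Klf5 siRNA. Klf5 was also lower in Nr5a2 KD than in control (109 to 158 CPM, log2 fold change -1.68, adjusted p = 0.0013, edgeR), so the Nr5a2 KD embryos had less of both factors. Of 8 embryo markers 7 reached 1 CPM, led by Dppa3, while Cdx2 stayed below 1 CPM in every library. The keratin genes Krt8 and Krt18 of that list were called higher in Nr5a2 KD than in control (2.21 ± 0.439 and 2.68 ± 0.635), as they were against Klf5 KD, where Tfap2c was called lower in Nr5a2 KD. Krt8 was also called higher in dKD than in Klf5 KD. The part of these genes in the values of the p53 targets was not tested. Against control, the Krt8 call was lost without either control library. Krt18 ran from 1.91 to 4.58 as libraries were left out, and its call was lost without control replicate 1 or Nr5a2 KD replicate 1, with the replicate block and with the mitochondrial covariate. The 8 cumulus cell markers together reached at most 4.94 CPM in any library, and Amh, Has2, Ptgs2 and Ptx3 stayed below 1 CPM throughout. Mitochondrial genes took 12.9% and 13.2% of counts in the control libraries. Their share in Nr5a2 KD ran from 6.18% up to 12.5%, in Klf5 KD from 4.41% up to 11.8%, and in dKD from 6.17% up to 12.8%. Added ERCC spike-in RNA made up 0.398% and 0.459% of the control counts, and between 0.204% and 0.378% for the other groups, none of whose 10 libraries reached control.

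The promoters of the target genes show what p53 could read. p53 binds as a tetramer to a pair of 10-base decamers, each made of purines, a C, a pair of A or T, a G and pyrimidines. In RefSeq windows (GRCm38.p6) that run from 250 bases before to 50 bases after a transcription start, a p53 decamer was present in 8.36% of 32851 windows, and a pair at most 13 bases apart was present in 0.0731%. The decamer reads the same on both strands, so 1 search covered both. Windows were listed for 8 of the 10 genes, all but Trp53inp1 and Zmat3, and 5 of these genes held a decamer: Cdkn1a, Mdm2, Ccng1, Bax and Aen. Cdkn1a was the only one with a pair, in the window of the more upstream of its RefSeq starts. The stretches around the upstream decamers are printed for all 5 of these genes; capitals mark the decamers, each sequence runs 5′ to 3′ on the gene's own strand, and position 0 would be the first transcribed base.
Cdkn1a: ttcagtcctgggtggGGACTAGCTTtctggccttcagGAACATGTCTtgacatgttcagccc
Mdm2: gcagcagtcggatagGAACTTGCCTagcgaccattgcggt
Ccng1: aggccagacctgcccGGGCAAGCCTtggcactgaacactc
Bax: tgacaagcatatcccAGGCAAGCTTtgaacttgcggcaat
Aen: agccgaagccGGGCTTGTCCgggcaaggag
The Cdkn1a stretch lies at chr17:29090891-29090952 on the plus strand, with its decamers between positions -73 and -42 and a spacer of 12 bases. These positions count from the upstream start, which lies 2790 bases before the other RefSeq start. The bases tgacatgttc, directly after the second decamer, differ from the decamer pattern only in their first base. The strict search did not count them, so the marked pair need not be the pair that p53 reads. The Mdm2 stretch lies at chr10:117710920-117710959 on the minus strand (decamer from -186), the Ccng1 stretch at chr11:40755447-40755486 on the minus strand (from -185), the Bax stretch at chr7:45467075-45467114 on the minus strand (from -201) and the Aen stretch at chr7:78895927-78895956 on the plus strand (from -121). The Aen stretch overlaps an annotated exon, and the other 4 do not. The nuclear receptor motif CAAGGTCA, which NR5A2 recognises, was searched on both strands and was present in 1.56% of windows and in none of the 12 windows of these 8 genes; Trp53inp1 and Zmat3 were not searched. Only that exact form of the NR5A2 motif was searched. The NR5A2 motif in the paper's nucleosome binding assay has a C in place of the T. That form was not searched, so its presence in these windows was not tested. A match is a run of letters and was not tested for binding, and the windows leave out introns and distal sites.

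**Figure D1:**
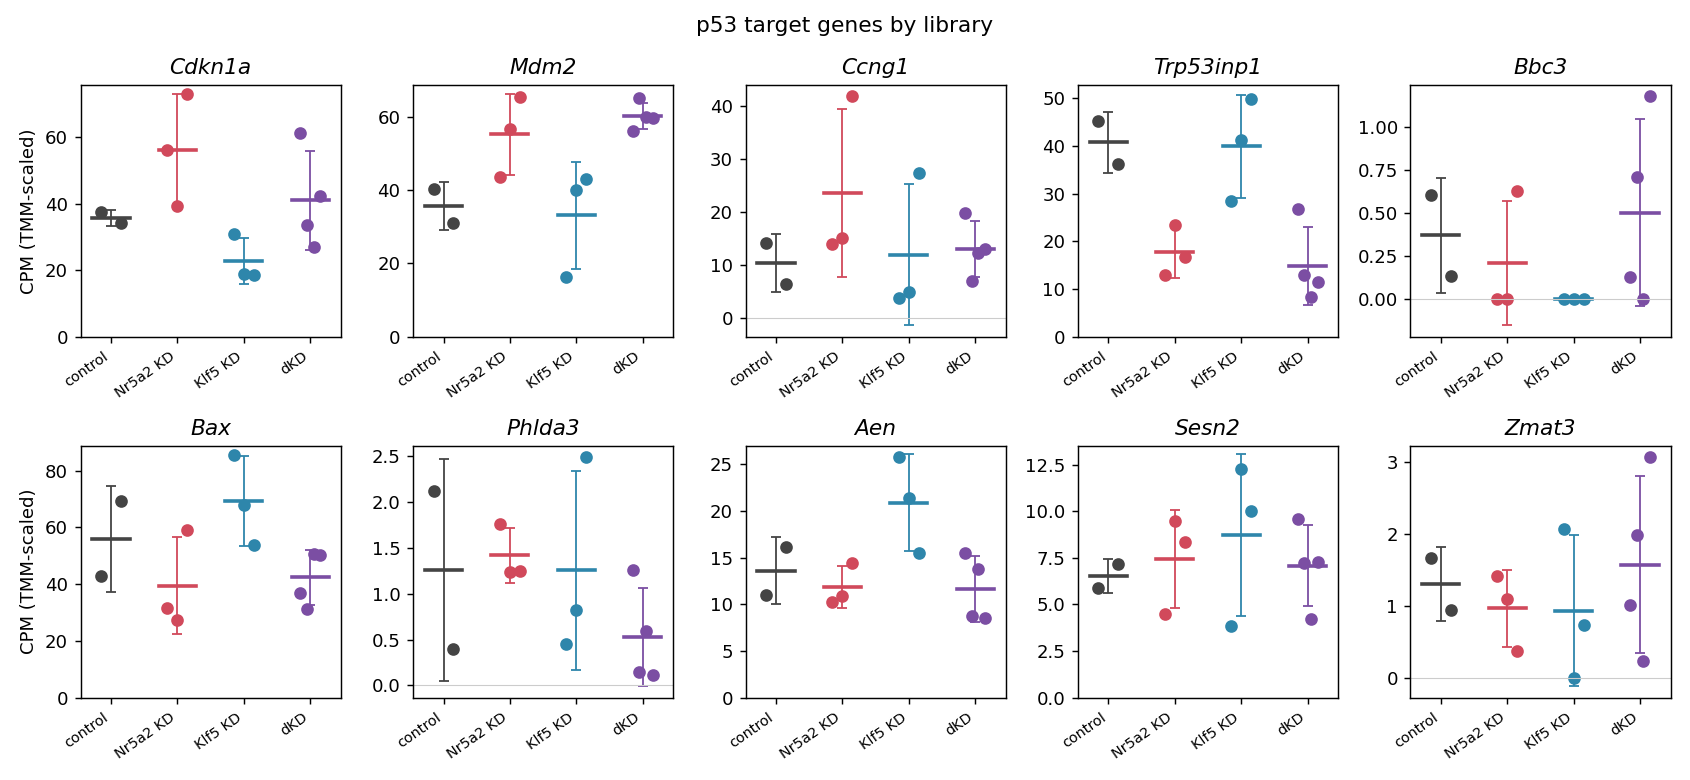
Level of each p53 target gene in every library, in TMM-scaled CPM (linear axis, 1 panel per gene with its own scale); points are libraries, thick lines group means and thin bars the SD over n = 2, 3, 3 and 4 libraries. Trp53inp1 sits at 8.25 to 26.7 CPM in all 7 libraries given Nr5a2 siRNA and at 28.5 to 49.8 CPM in the other 5, while Bbc3, Phlda3 and Zmat3 stay near 0. The share of all genes that separate like Trp53inp1 was not counted.

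The 10 genes spanned a wide range in control embryos. On a per-length scale, Bax was highest at 35.5 ± 11.8 CPM per kb of exon (SD, n = 2), followed by Cdkn1a at 10.1 ± 0.674, Mdm2 at 7.01 ± 1.28 and Trp53inp1 at 6.29 ± 0.978. Mdm2 and Trp53inp1 lay within each other's spread in this order. Ccng1 (2.94 ± 1.57), Aen (2.34 ± 0.62) and Sesn2 (1.88 ± 0.257) formed an intermediate set that likewise overlapped. Phlda3 (0.808 ± 0.779), Bbc3 (0.174 ± 0.157) and Zmat3 (0.114 ± 0.045) were near the detection limit, with 17, 5 and 18 counts over both control libraries. In pooled embryos, a lower level in every cell and fewer cells with the transcript cannot be told apart.

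Trp53inp1, which encodes a nuclear protein that promotes p53 phosphorylation and autophagy, was the target gene with the most calls. It is annotated at chr4:11156431-11174379 (GRCm38, plus strand). Its level was 45.2 and 36.3 CPM in the control libraries and 12.9, 23.5 and 16.8 CPM in Nr5a2 KD. In Klf5 KD it was 28.5, 41.4 and 49.8 CPM, and in dKD 26.7, 13, 8.25 and 11.5 CPM. All 7 libraries given Nr5a2 siRNA lay below all 5 that were not, and the closest values were 26.7 CPM (dKD replicate 1) and 28.5 CPM (Klf5 KD replicate 1). How many of all genes separate in this way was not counted, so this pattern is a description only.

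The mean of Trp53inp1 in Nr5a2 KD was 43.5% of the control mean, and in dKD 36.5%. By edgeR's quasi-likelihood test with Benjamini-Hochberg adjustment over all tested genes, Trp53inp1 fell in Nr5a2 KD against control (log2 fold change -1.17 ± 0.293 SE, adjusted p = 0.0287). It also fell in dKD against control (-1.42 ± 0.379, adjusted p = 0.0415) and in dKD against Klf5 KD (-1.41 ± 0.365, adjusted p = 0.0226), and was higher in Klf5 KD than in Nr5a2 KD (1.15 ± 0.315, adjusted p = 0.0282). Between dKD and Nr5a2 KD the difference was -0.25 ± 0.372 (adjusted p = 0.999), and Klf5 KD against control gave an adjusted p of 0.989. Leaving out 1 library moved the former from -0.70 (without dKD replicate 1) to -0.0046 (without Nr5a2 KD replicate 2). The exact two-sided permutation test of the CPM gave p = 0.2 for Nr5a2 KD against control, 0.133 for dKD against control, 0.0571 for dKD against Klf5 KD and 0.1 for Klf5 KD against Nr5a2 KD, in each case the smallest p these group sizes allow.

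The direction of Trp53inp1 was the same in every alternative run for these 4 comparisons, but the call was not. Against control in Nr5a2 KD it was lost without control replicate 1 (-1.02), control replicate 2 (-1.32) or Nr5a2 KD replicate 1 (-0.972). Against control in dKD it was lost without either control library or without dKD replicate 2, 3 or 4, with values from -1.86 to -1.22 over the 6 libraries left out in turn. In dKD against Klf5 KD it was lost without Klf5 KD replicate 2 or 3 or dKD replicate 2 or 4 (range -1.85 to -1.20), and in Klf5 KD against Nr5a2 KD without Nr5a2 KD replicate 1 or 3 or Klf5 KD replicate 2 or 3 (range 0.97 to 1.41). It was also lost against control with the mitochondrial share as a covariate (-0.998, adjusted p = 0.126, in Nr5a2 KD); the mitochondrial share ran lower in some knockdown libraries, and its part in the result was not tested further. When Nr5a2 siRNA and Klf5 siRNA were fitted as 2 additive factors over all 12 libraries, a fit chosen after seeing the data, the Nr5a2 siRNA effect on Trp53inp1 was -1.33 ± 0.255 (adjusted p = 0.00109), beside 6.55% of 14830 genes called lower and 6.72% called higher for that factor. The Klf5 siRNA effect in the same fit was -0.16 ± 0.257 (adjusted p = 0.937), and 0 of the target genes were called for it, beside 0 of all genes called higher and 0.0472% called lower.

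Cdkn1a encodes p21, the cyclin-dependent kinase inhibitor through which p53 arrests the cycle, at chr17:29090976-29100727 (plus strand). Its level was 37.5 and 34.1 CPM in control, 56.2, 39.4 and 72.9 CPM in Nr5a2 KD and 30.8, 19.0 and 18.5 CPM in Klf5 KD. The Nr5a2 KD libraries thus all lay above control and the Klf5 KD libraries all below it. In dKD the levels were 61.4, 33.7, 27.0 and 42.2 CPM, on both sides of the control values.

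Neither single knockdown passed the edgeR test against control for Cdkn1a (0.68 ± 0.285, adjusted p = 0.165 in Nr5a2 KD; -0.63 ± 0.322, adjusted p = 0.606 in Klf5 KD). With the mitochondrial share as a covariate these became 0.17 and -1.22, neither called. The direct comparison passed the test: Cdkn1a was lower in Klf5 KD than in Nr5a2 KD by a log2 fold change of -1.31 ± 0.31 (adjusted p = 0.0138). Leaving out 1 library at a time moved this value between -1.59 and -1.06, and the call was lost without Nr5a2 KD replicate 3 and without Klf5 KD replicate 2. In dKD the difference from control was 0.23 ± 0.307 and changed sign to -0.023 without dKD replicate 1. The difference of dKD from Klf5 KD was 0.86 ± 0.316 (adjusted p = 0.0968) and that of dKD from Nr5a2 KD -0.45 ± 0.292 (adjusted p = 0.999). Leaving out 1 library moved the former between 0.60 and 1.16 and the latter between -0.71 and -0.20. Exons of Cdkn1a overlap an antisense gene, AC167363.2, and the counting did not use strand.

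Mdm2, the ligase that degrades p53 and is itself a p53 target, lies at chr10:117688875-117710758 (minus strand). It stood at 40.2 and 31.1 CPM in control and at 43.5, 56.8 and 65.4 CPM in Nr5a2 KD. In dKD the 4 libraries were close together, at 56.3, 65.1, 60.1 and 59.7 CPM. In Klf5 KD it stood at 16.4, 39.9 and 43.1 CPM, a range that included both control values. Over the 12 libraries, the 7 given Nr5a2 siRNA all lay above the other 5, but narrowly, with 43.5 CPM (Nr5a2 KD replicate 1) next to 43.1 CPM (Klf5 KD replicate 3). As for Trp53inp1, the share of all genes that separate in this way was not counted.

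The dKD mean of Mdm2 was 169% of control and the Nr5a2 KD mean 155%. In dKD against control the log2 fold change was 0.80 ± 0.222 (adjusted p = 0.0482, edgeR), past the p threshold but below the 2-fold minimum set for a call. At that p with no fold minimum, 3.75% of all genes were higher. The edgeR adjusted p was 0.0407 without dKD replicate 1 and 0.0669 to 0.0930 without dKD replicate 2, 3 or 4. It was 0.0522 with DESeq2 size factors and 0.169 with all 12 libraries in one fit. The fold ran from 0.63 to 0.99 as libraries were left out. In Nr5a2 KD it was 0.66 ± 0.265 (adjusted p = 0.145), in dKD against Klf5 KD 0.88 ± 0.304 (adjusted p = 0.0791) and -0.76 ± 0.342 for Klf5 KD set against Nr5a2 KD (adjusted p = 0.179). In the additive fit over 12 libraries, chosen after seeing the data, the Nr5a2 siRNA effect was 0.77 ± 0.212 for Mdm2 (adjusted p = 0.0144) and 0.76 ± 0.224 for Cdkn1a (adjusted p = 0.0207). In the other direction it was -0.63 ± 0.215 for Bax (adjusted p = 0.0454). All 3 were under 2-fold and not called. The share of all genes past that p with no fold minimum was not counted for this fit. With the 2-fold minimum, 6.72% of all genes were called higher and 6.55% lower.

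Ccng1, a cyclin that recruits a phosphatase to MDM2, lies at chr11:40748552-40755311 (minus strand). It was measured at 14.2 and 6.43 CPM in control, 13.9, 15.1 and 41.8 CPM in Nr5a2 KD, 3.68, 4.83 and 27.4 CPM in Klf5 KD, and 19.8, 6.93, 12.3 and 13.1 CPM in dKD. A single library, replicate 3, set the high value in each of the single knockdowns. The difference of Nr5a2 KD from control was 1.24 ± 0.515 (adjusted p = 0.162) and that of Klf5 KD from Nr5a2 KD -1.02 ± 0.638 (adjusted p = 0.355). Both values turned on single libraries. The former ran from 0.52 (without Nr5a2 KD replicate 3) to 1.90 (without control replicate 1) and was 0.20 with the mitochondrial share as a covariate. The latter ran from -0.32 (without Nr5a2 KD replicate 3, adjusted p = 0.822) to -2.48 (without Klf5 KD replicate 3, adjusted p = 0.00684), and was -0.57 and -0.63 without Klf5 KD replicate 1 and 2.

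Bax, a pore-forming BCL2 family member and effector of apoptosis, lies at chr7:45461697-45466898 (minus strand). Its level was 42.8 and 69.1 CPM in control, 31.7, 27.5 and 59.0 CPM in Nr5a2 KD, 85.6, 68.0 and 53.9 CPM in Klf5 KD, and 37.0, 31.3, 50.7 and 50.4 CPM in dKD. The dKD libraries all lay below the Klf5 KD libraries, and every other pair of groups overlapped. The difference of dKD from Klf5 KD was -0.70 ± 0.254 (adjusted p = 0.0921). Exons of Bax overlap Gm45808 on the same strand, and the authors' counting split shared reads between them.

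Aen, a nuclease that takes part in apoptotic DNA fragmentation, lies at chr7:78895854-78911209 (plus strand). It stood at 11.0 and 16.1 CPM in control, 10.2, 10.9 and 14.5 CPM in Nr5a2 KD, 25.8, 21.4 and 15.5 CPM in Klf5 KD, and 15.5, 8.77, 13.8 and 8.54 CPM in dKD. The Klf5 KD libraries lay above the Nr5a2 KD libraries, with a difference of 0.80 ± 0.315 (adjusted p = 0.116), and dKD differed from Klf5 KD by -0.84 ± 0.309 (adjusted p = 0.0961). Neither passed the test.

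Bbc3, which encodes the BH3-only protein PUMA, was barely detected, with 5 counts over 2 control libraries, 5 over 3 Nr5a2 KD libraries, 0 over 3 Klf5 KD libraries and 16 over 4 dKD libraries. It did not pass the filter on low counts in any comparison and was not tested, and no fold is given. Phlda3, an inhibitor of AKT signalling, ranged from 0.118 to 2.49 CPM, and Zmat3, an RNA-binding zinc finger protein, from 0 to 3.06 CPM. Phlda3 was tested in 5 comparisons and Zmat3 in 4, and neither was called in any. Sesn2, a stress sensor that restrains mTORC1, was measured more firmly, at 3.86 to 12.3 CPM, and its groups overlapped in all 6 comparisons.

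**Figure D2:**
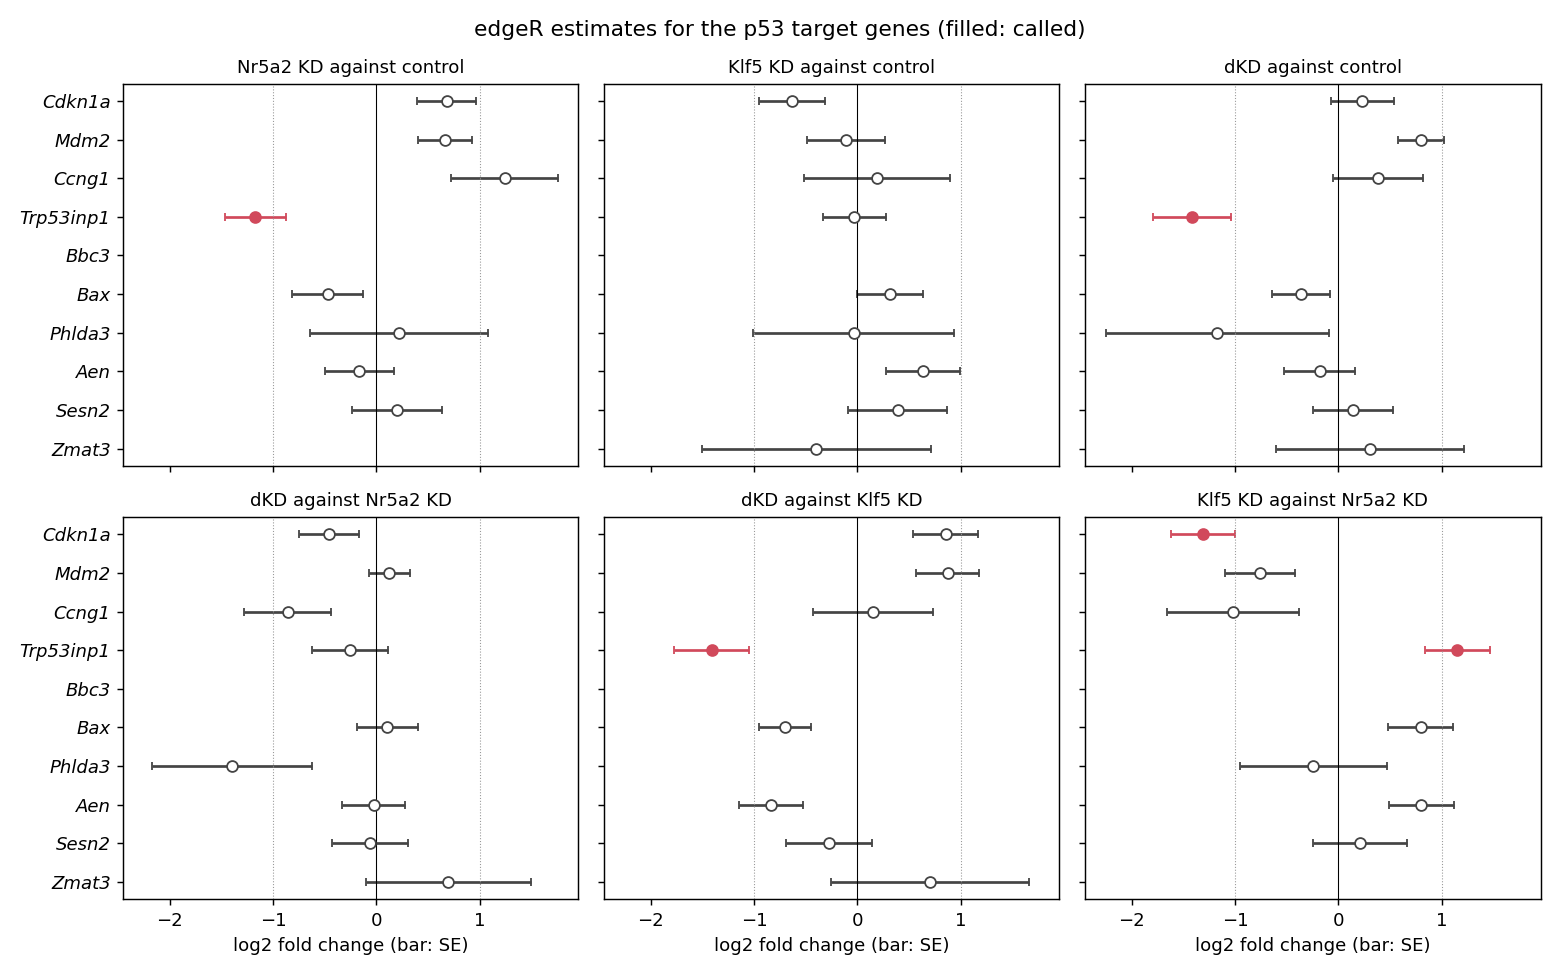
Log2 fold change of each tested p53 target gene in the 6 comparisons, estimated by edgeR; bars are the SE, dotted lines mark a 2-fold difference, filled red points were called (adjusted p below 0.05 and at least 2-fold) and a gene that did not pass the filter on low counts has no point. Trp53inp1 is called in 4 comparisons and Cdkn1a in 1 (-1.31, Klf5 KD against Nr5a2 KD).

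The target genes were then counted as a group. In Nr5a2 KD against control, 8 of the 10 were tested, 1 was called lower (Trp53inp1) and 0 were called higher, where 4.42% and 3.45% of all 13262 tested genes were called lower and higher. The libraries of the groups did not overlap for 3 of the 8, with Cdkn1a and Mdm2 higher and Trp53inp1 lower, where 19.9% of all genes were higher and 22.5% lower without overlap. The median log2 fold change was 0.21 over the 8 genes and 0.044 over all genes; leaving out 1 library moved the former between -0.011 (without Nr5a2 KD replicate 2) and 0.48 (without Nr5a2 KD replicate 1). Of the 8, 5 had a positive value.

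In dKD against control, 9 were tested, 1 was called lower (Trp53inp1) and 0 higher, beside 3.85% and 3.38% of all genes. Mdm2 lay above control and Trp53inp1 below it without overlap, where 17.0% and 19.3% of all genes did so. The median was 0.14 over the 9 genes and 0.055 over all genes; leaving out 1 library moved the former between -0.054 (without dKD replicate 4) and 0.36 (without control replicate 1). Nr5a2 KD and dKD were compared with the same 2 control libraries.

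In Klf5 KD against control, 0 of 9 were called, as was 0 of all 12838 genes by edgeR; 8.47% of all genes, and 0 of these 9, had an unadjusted p under 0.05. Klf5 itself was not called there (-2.03 ± 0.292, adjusted p = 0.0996). Over all genes, DESeq2 called 8 higher and 42 lower, and edgeR with the replicate block 107 higher and 146 lower, with 0 of the targets among them. Cdkn1a alone did not overlap control (lower, as did 14.4% of all genes, with 12.6% higher). In dKD against Nr5a2 KD, 0 of 9 were called and 0 of all genes, with 3.43% of all genes and 0 of the 9 at an unadjusted p under 0.05, and the groups overlapped for each of the 9, where 2.34% of all genes were higher and 2.43% lower without overlap. The median was -0.063, beside 0.012 over all genes.

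Klf5 KD was next set beside each group given Nr5a2 siRNA. In dKD against Klf5 KD, 1 of 8 was called lower (Trp53inp1) and 0 higher, beside 5.41% and 5.38% of all genes. Mdm2 was higher, and Trp53inp1 and Bax lower, without overlap (12.3% and 12.6% of all genes). In Klf5 KD against Nr5a2 KD, 1 of 8 was called higher (Trp53inp1) and 1 lower (Cdkn1a), beside 5.83% and 5.60% of all genes. Cdkn1a and Mdm2 were lower and Trp53inp1 and Aen higher without overlap (15.2% and 15.7% of all genes).

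Trp53 itself, which encodes p53, was low in all groups. It stood at 3.18 and 5.22 CPM in control, 8.70, 3.99 and 10.3 CPM in Nr5a2 KD, 10.9, 5.07 and 5.27 CPM in Klf5 KD, and 7.44, 3.96, 10.0 and 8.60 CPM in dKD. The edgeR differences from control were 0.89 ± 0.501 in Nr5a2 KD (adjusted p = 0.311), 0.77 ± 0.498 in Klf5 KD (adjusted p = 0.675) and 0.88 ± 0.46 in dKD (adjusted p = 0.265). Leaving out 1 library moved Trp53 between 0.57 and 1.30 in Nr5a2 KD and between 0.57 and 1.29 in dKD. Other settings took it as low as 0.16 in Nr5a2 KD and 0.43 in dKD, and with ERCC-based library sizes it was called in dKD. Its paralogs Trp63 and Trp73 reached at most 0.55 and 0.0589 CPM.

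Mdm4, the MDM2 partner that masks the activation domain of p53, stood at 221 and 190 CPM in control, 112, 155 and 73.7 CPM in Nr5a2 KD, 113, 162 and 166 CPM in Klf5 KD, and 108, 223, 71.6 and 75.1 CPM in dKD. The libraries of both single knockdowns lay below control, while dKD replicate 2 reached the control level. The difference was -0.83 ± 0.281 in Nr5a2 KD (adjusted p = 0.091) and -0.75 ± 0.381 in dKD (adjusted p = 0.248), and neither passed the test. Leaving out 1 library brought a call in each, without Nr5a2 KD replicate 2 (-1.12) and without dKD replicate 2 (-1.23). Of 26 genes listed as p53 and its regulators, 22 were tested in Nr5a2 KD and in dKD against control, and 1 was called higher in each, beside 3.45% and 3.38% of all genes, with medians of 0.0062 and 0.011; in Klf5 KD 0 of 21 were called. The called gene was Atr, the kinase that senses stalled replication forks (1.42 ± 0.339, adjusted p = 0.0228, in Nr5a2 KD; 1.27 ± 0.296, adjusted p = 0.0238, in dKD); its exons overlap other genes. The Atr call was lost in Nr5a2 KD with the replicate block and without either control library or Nr5a2 KD replicate 2, and in dKD without either control library.

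**Figure D3:**
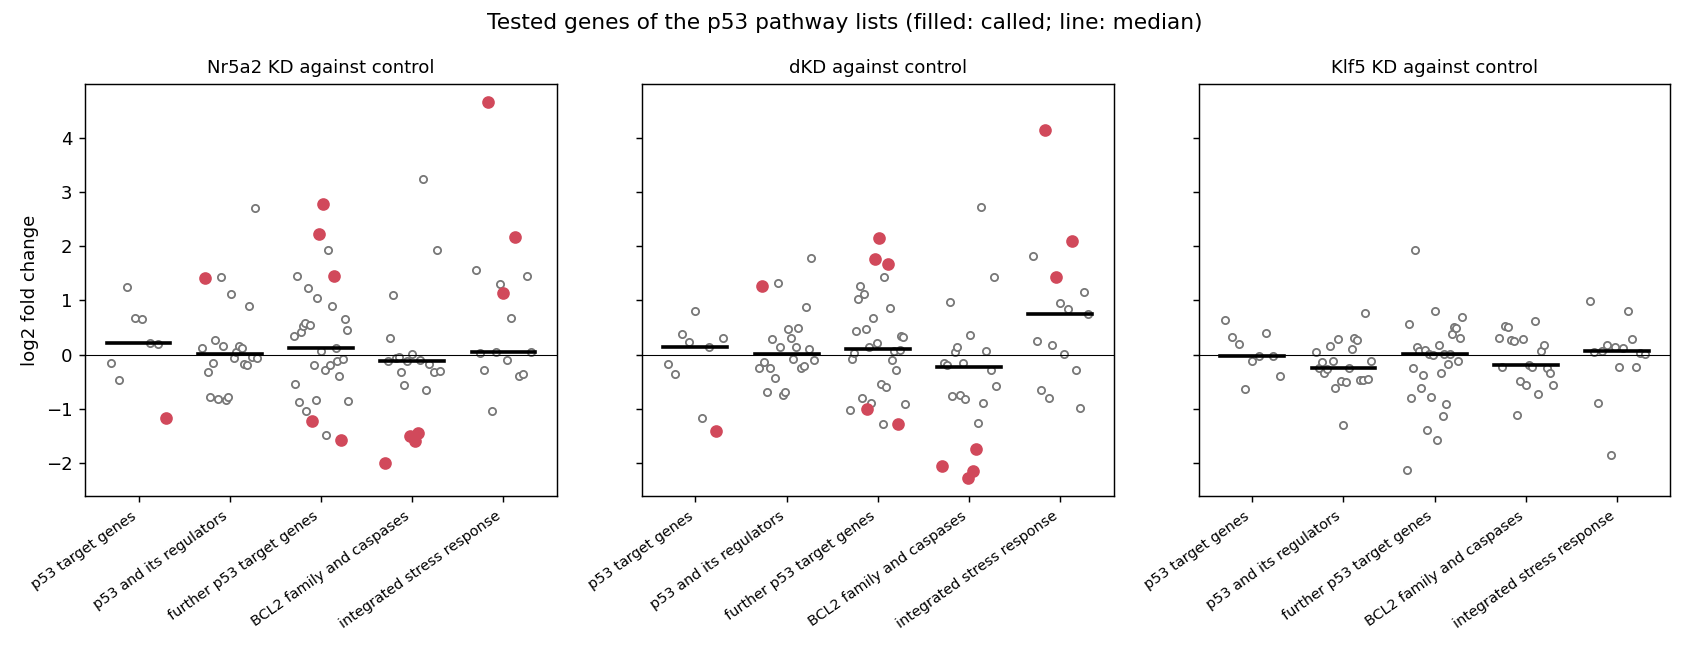
Log2 fold change against control of the tested genes in 5 lists, in Nr5a2 KD, dKD and Klf5 KD; open points were not called, filled red points were called and black lines are list medians. Hrk, at 0 in both control libraries, is counted in the median but not drawn. Called genes lie on both sides of 0 among the further p53 targets (3 higher and 2 lower in Nr5a2 KD), and none is called in Klf5 KD.

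Further p53 target genes gave calls in both directions. Of 44 listed, 31 were tested in Nr5a2 KD against control, and 3 were called higher and 2 lower, beside 3.45% and 4.42% of all genes; in dKD 30 were tested, again with 3 higher and 2 lower, beside 3.38% and 3.85%, and in Klf5 KD 0 of 29 were called. Their median was 0.12 in Nr5a2 KD and 0.11 in dKD. Perp, a desmosome-associated membrane protein, rose from 13.6 and 12.7 CPM in control to 66.0, 47.1 and 67.0 CPM in Nr5a2 KD (2.22 ± 0.275, adjusted p = 0.000844) and to 37.6 to 48.4 CPM in dKD (1.76 ± 0.248, adjusted p = 0.00284). In Klf5 KD it was at 6.10, 4.71 and 12.2 CPM, below each control library. Plk2, a polo-like kinase of centriole duplication, rose in Nr5a2 KD (2.78 ± 0.486, adjusted p = 0.00534) and in dKD (2.14 ± 0.513, adjusted p = 0.0258). Psrc1, a spindle protein, was called higher in Nr5a2 KD (1.44 ± 0.387), and Polk, a translesion DNA polymerase, in dKD (1.67 ± 0.364). Perp kept its call in Nr5a2 KD whichever library was left out. The dKD calls of Perp, Plk2 and Polk were lost without either control library, that of Plk2 also without dKD replicate 4. In Nr5a2 KD, Plk2 was lost without control replicate 2 and Psrc1 without either control library or Nr5a2 KD replicate 2 or 3.

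The targets that fell were Sfn and Ei24. Sfn encodes 14-3-3 sigma, which sequesters cyclin B and CDK1, and went from 297 and 270 CPM in control to 85.3, 109 and 85.6 CPM in Nr5a2 KD (-1.58 ± 0.219, adjusted p = 0.00156) and 87.3 to 141 CPM in dKD (-1.28 ± 0.22, adjusted p = 0.00661). In Klf5 KD it stood at 518, 391 and 293 CPM. Ei24, an endoplasmic reticulum protein of autophagy, fell in Nr5a2 KD (-1.23 ± 0.247, adjusted p = 0.0104) and in dKD (-1.01 ± 0.235, adjusted p = 0.0236). Its exons overlap Gm26787. The Ei24 calls were lost without either control library, and in dKD also without dKD replicate 3 or 4; Sfn kept its call in Nr5a2 KD whichever library was left out and lost it in dKD without either control library. With ERCC-based library sizes, which shift all genes upward against control, the calls of Sfn and Ei24 were lost in both groups. The mitochondrial covariate took Ei24 below 2-fold in both and ended the Psrc1 call in Nr5a2 KD. The replicate block ended the calls of Ei24 in dKD and of Psrc1 in Nr5a2 KD, and total counts also ended that of Ei24 in dKD.

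BCL2 family genes, caspases and their regulators act in apoptosis downstream of p53. The list used here also holds genes that restrain apoptosis, among them Mcl1 and Birc2, so its median mixes opposite functions. Of the 27 listed genes, 21 were tested in Nr5a2 KD, with 4 called lower and 0 higher, where 4.42% and 3.45% of all genes were called. In dKD 22 were tested, with 4 lower and 1 higher (3.85% and 3.38% of all genes), and in Klf5 KD 0 of 19 were called. Among the genes that fell in both were Bad, a BH3-only protein (-2.0 in Nr5a2 KD and -2.06 in dKD; it overlaps Gpr137), Bok, a BAX-like effector (-1.5 and -2.27), and Casp6, a caspase (-1.45 and -1.75). The median over the tested genes was -0.12 in Nr5a2 KD and -0.23 in dKD. Hrk, a BH3-only protein, was called higher in dKD, where it was at 0.589 to 1.77 CPM. It had 0 counts in both control libraries, so no fold is given. Leaving out 1 library at a time ended the Hrk call in 5 of 6 cases, all but dKD replicate 3. The replicate block and the fit of all 12 libraries together also ended it. The call of Bok in Nr5a2 KD was lost without either control library and that of Casp6 without either control library or Nr5a2 KD replicate 1; in dKD, Bad was lost without control replicate 2 and Casp6 without control replicate 1. ERCC-based sizes ended the calls of Casp6 in both groups and of Bad and Bok in Nr5a2 KD, and the mitochondrial covariate those of Bok in Nr5a2 KD and Hrk in dKD.

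Genes of the integrated stress response, the translation-control pathway that also answers cellular stress, were tested alongside. Of 21 listed, 15 were tested, and 3 were higher and 0 lower in Nr5a2 KD and likewise in dKD (3.45% and 3.38% of all genes were called higher), with medians of 0.056 and 0.75; in Klf5 KD 0 of 14 were called. Chac1, a glutathione-degrading enzyme, was at 0.151 and 0.134 CPM in control, 6.59, 3.57 and 1.63 CPM in Nr5a2 KD and 1.51, 3.40, 3.53 and 2.36 CPM in dKD. Ppp1r15a, which restores eIF2 activity, rose in both (2.16 ± 0.557 and 2.10 ± 0.57). Hspa5, the chaperone BiP, was called in Nr5a2 KD (1.13 ± 0.224) and Eif2ak4, the kinase GCN2, in dKD (1.43 ± 0.4). The Eif2ak4 call was lost whichever of the 6 libraries was left out (adjusted p = 0.0591 to 0.296), and those of Hspa5 and Chac1 without either control library. Ppp1r15a moved between 1.47 and 3.61 in Nr5a2 KD, losing its call without control replicate 1 or Nr5a2 KD replicate 2, and between 1.42 and 3.56 in dKD, losing it without control replicate 1 or dKD replicate 3 or 4; the mitochondrial covariate ended both Ppp1r15a calls.

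Klf5 KD was also set beside both groups given Nr5a2 siRNA. Among the further p53 targets, dKD against Klf5 KD gave 4 called higher and 3 called lower of 28 tested (5.38% and 5.41% of all genes), and Klf5 KD against Nr5a2 KD gave 2 called higher and 5 called lower of 28 (5.83% and 5.60%). Perp and Sfn again moved in opposite directions: in dKD against Klf5 KD, Perp was higher (2.52 ± 0.333) and Sfn lower (-1.81 ± 0.249), and in Klf5 KD against Nr5a2 KD, Perp was lower (-3.0 ± 0.362) and Sfn higher (2.09 ± 0.28). Btg2, an antiproliferative co-factor of deadenylation, was lower in Klf5 KD than in Nr5a2 KD (-2.24 ± 0.625), as was Dram1, a lysosomal protein of autophagy (-1.83 ± 0.507). Leaving out 1 library moved Btg2 between -2.57 and -1.18 and ended its call without Nr5a2 KD replicate 3 or Klf5 KD replicate 1 or 2. As libraries were left out, Dram1 kept its call only without Nr5a2 KD replicate 1. The replicate block and ERCC-based library sizes also ended it. Of the BCL2 family genes and caspases, dKD against Klf5 KD gave 2 called higher and 4 called lower of 19 tested, and Klf5 KD against Nr5a2 KD gave 3 called higher and 0 called lower of 19. Of the 15 tested stress response genes, 2 were called higher and 0 lower in the former comparison (5.38% and 5.41% of all genes), and 0 higher and 3 lower in the latter (5.83% and 5.60%).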

How the data were processed

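RNA from pools of 10 embryos was amplified with SMART-seq v4 and sequenced in paired ends, on a NovaSeq per the study's RNA-seq methods (the labels also name AVITI). The authors trimmed reads (Trim Galore 0.6.2), aligned them to GRCm38 with STAR and deposited estimated counts per gene from featureCounts 2.0.1, without strand and with reads on several genes split, so that 7.30% to 8.66% of all genes had a value that was not whole in a library. SMART-seq v4 has no molecular identifiers, so amplified copies count as reads. Counts were rounded, scaled by TMM and tested with edgeR 4.0.16 (R 4.3.3) on the libraries of each comparison, with genes kept by filterByExpr (minimum 10 counts, 15 in total). A call needed a Benjamini-Hochberg adjusted p below 0.05 over all tested genes and a 2-fold difference. DESeq2 1.42.0 was an alternative. Scripts were tested on simulated data. Named genes were the 10 targets, p53, its paralogs, Mdm4, the siRNA targets and, from each other list, up to 5 called genes per direction with the smallest p. One gene that this rule names is not reported here. The members and lists were chosen with earlier results of these data known. Same-numbered dKD and Nr5a2 KD libraries deviated together (r = 0.142, 0.259 and 0.272). The highest r of that comparison, 0.288, belonged to dKD replicate 4 and Nr5a2 KD replicate 3. For dKD replicate 1 with Nr5a2 KD replicate 2 it was 0.107. The numbers thus do not establish a pairing, and the replicate block was an alternative only. In no other comparison did all same-numbered pairs exceed 0.1.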

Additional observations from a re-analysis of the deposited data

How the results depend on the processing

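With 2 to 4 libraries a group, each call on these genes was lost when at least 1 library was left out, and genes under about 10 counts could not be tested. Trp53inp1 kept its direction in every alternative of the 4 comparisons in which it was called. Against control in Nr5a2 KD, the number called lower became 0 with total counts, with ERCC-based library sizes and with all 12 libraries in one fit. Adding the mitochondrial share as covariate left 1, but the gene called lower was Bax, not Trp53inp1. With no filter on low counts 1 gene, Ccng1, was called higher. In dKD against control, the number lower became 0 with total counts, ERCC-based sizes and the mitochondrial covariate, and 1 gene, Mdm2, was called higher with ERCC-based sizes and with no fold minimum. In dKD against Klf5 KD, 2 (Cdkn1a and Mdm2) were called higher with total counts, and 0 were called lower with ERCC-based sizes. In Klf5 KD against Nr5a2 KD, 0 were called higher with total counts, and 0 higher and 0 lower with ERCC-based sizes. Leaving out 1 library at a time gave 0 to 1 called lower in Nr5a2 KD against control, in dKD against control and in dKD against Klf5 KD, 0 to 1 called higher in dKD against Klf5 KD and in Klf5 KD against Nr5a2 KD, and 0 to 2 called lower in the last.

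ERCC-based sizes moved the median of all genes against control to 0.82 in Nr5a2 KD, 0.66 in Klf5 KD and 0.84 in dKD, and turned Bax in Nr5a2 KD to 0.47 and Cdkn1a in Klf5 KD to 0.060, both below that shift; Cdkn1a in dKD against control ran from -0.023 (without dKD replicate 1) to 0.39 as libraries were left out. The cause was not tested.

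With the replicate number as a block, 0 targets were called lower in dKD against Klf5 KD and 2 (Cdkn1a and Ccng1) in Klf5 KD against Nr5a2 KD. In those comparisons same-numbered libraries did not all deviate together. The block changed no other count of calls, including dKD against Nr5a2 KD, where same-numbered libraries deviated together.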
